A study of Homo sapiens with 4 samples.

Results

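The genes that write, erase and read methyl marks on histones were examined as a set of 50 human genes: 22 encode histone or arginine methyltransferases and their SET-domain relatives, 15 encode demethylases or a reader of a demethylase complex, and 13 encode Polycomb proteins. The set was chosen by name, with earlier results of these data known. Each gene was placed at the start site of its canonical GENCODE transcript on hg19. All 50 were found among 20149 protein-coding genes. They were spread over 18 chromosomes, and 5 lie on chromosome X.

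The study mapped acetylation of lysine 27 of histone H3 (H3K27ac), a mark of active promoters and enhancers, by chromatin immunoprecipitation and sequencing in K562, a human cell line derived from chronic myeloid leukaemia with erythroid features. Cells carried 1 of 3 short hairpin RNAs: a first hairpin against TFAM (hairpin 1, TFAM-sh1), another against TFAM (hairpin 2, TFAM-sh2), or a control hairpin (shNT). TFAM packages mitochondrial DNA and is needed for its transcription. Each condition has 1 peak list from 1 library in 1 cell line, all made with the antibody Abcam ab4729, so no comparison below has a replicate check and no p-value is given. An input library was also labelled and is not analysed here, and the level of TFAM itself was not measured by these lists.

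Histone methylation works in both directions. Trithorax-type enzymes such as the KMT2 family methylate H3K4 at active genes, NSD and SETD2 enzymes methylate H3K36, DOT1L methylates H3K79, and the EHMT and SUV39H enzymes methylate H3K9 in silent chromatin. Polycomb repressive complex PRC2 methylates H3K27 and PRC1 ubiquitylates histone H2A. An acetyl and a methyl group cannot sit on the same lysine, so H3K27ac and the Polycomb mark on H3K27 exclude each other. The JmjC demethylases use alpha-ketoglutarate, which mitochondria make, and the methyltransferases use S-adenosylmethionine.

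The lists held 23819 peaks for hairpin 1, 27007 for hairpin 2 and 23413 for control, covering 54.4, 61.9 and 52.1 Mb of the genome. Their median widths were 1996, 1960 and 1952 bp, and the widest peaks were 8781, 8841 and 8704 bp. A peak touched the promoter, defined as 1 kb on each side of the start site, in 54.7% of protein-coding genes for hairpin 1, 54.9% for hairpin 2 and 53.7% for control. Of 11 erythroid marker genes, 6, 5 and 7 had a promoter peak in hairpin 1, hairpin 2 and control; LMO2, EPOR, TFRC and HBZ were among them in every list, whereas GATA1, KLF1, NFE2 and HBG1 had none in any list. None of 4 hepatocyte genes had one, and of 5 lymphoid genes CD3D and CD79A had one in the hairpin 1 list alone. The number of sequenced reads behind each list is not given in the sources used here.

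Promoter peaks were present in all 3 lists at 42 of the 50 genes (84.0%), against 50.3% of all protein-coding genes and 85.9% of the genes with a promoter peak in at least 1 list. The remaining 8 genes split as follows. KMT2E, SETD5, DOT1L, PHF21A and PCGF1 had a promoter peak in both TFAM hairpin lists and none in the control list, a state found in 1.53% of all genes and 2.61% of those with a promoter peak in at least 1 list. BCOR had one in the control list and in neither hairpin list, as did 0.829% and 1.41% of these. BMI1 had one in hairpin 1 and control but not in hairpin 2, as did 1.21% and 2.07%, and SETD1B had none in any list, as did 41.4% of all genes. No member lacked a promoter peak in hairpin 1 alone (1.34% of all genes, 2.28% of those with a peak), or had one in hairpin 1 alone (1.65%, 2.82%) or in hairpin 2 alone (1.68%, 2.87%). A peak seen in bulk chromatin does not tell a weaker mark in every cell from a mark in fewer cells.

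The sequences of 6 of these promoters, those of the 5 genes with a peak in the hairpin lists alone and of BCOR, are printed because the contrast between the lists turns on them. Each runs 5′ to 3′ on the strand of the gene from 250 bases upstream of the start site to 50 bases from it, in the hg19 build (GRCh37). They are KMT2E (chr7:104654402-104654701, plus strand), SETD5 (chr3:9439049-9439348, plus), DOT1L (chr19:2163682-2163981, plus), PHF21A (chr11:46142956-46143255, minus), PCGF1 (chr2:74734773-74735072, minus) and BCOR (chrX:39957162-39957461, minus). Capitals mark matches on either strand to 1 of 5 motifs. GGGCGG is the GC box bound by SP and KLF factors, and the short NF-Y motif is the CCAAT box. The YY1-type motif searched was AAGATGGC. For ETS factors the letters were CCGGAAG, and for GATA factors they were AGATAA. Overlapping matches were counted separately.
KMT2E: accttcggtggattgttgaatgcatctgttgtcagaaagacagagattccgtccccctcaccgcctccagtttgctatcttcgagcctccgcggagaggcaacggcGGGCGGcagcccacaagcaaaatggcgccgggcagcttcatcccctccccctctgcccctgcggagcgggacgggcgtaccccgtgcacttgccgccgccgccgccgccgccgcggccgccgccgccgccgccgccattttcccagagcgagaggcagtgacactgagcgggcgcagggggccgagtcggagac
SETD5: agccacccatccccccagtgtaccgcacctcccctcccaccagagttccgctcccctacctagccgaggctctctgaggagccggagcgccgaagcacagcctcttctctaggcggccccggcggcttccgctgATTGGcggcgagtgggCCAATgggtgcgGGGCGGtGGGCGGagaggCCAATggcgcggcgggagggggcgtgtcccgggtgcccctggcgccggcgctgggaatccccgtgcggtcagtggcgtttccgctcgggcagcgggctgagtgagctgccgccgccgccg
DOT1L: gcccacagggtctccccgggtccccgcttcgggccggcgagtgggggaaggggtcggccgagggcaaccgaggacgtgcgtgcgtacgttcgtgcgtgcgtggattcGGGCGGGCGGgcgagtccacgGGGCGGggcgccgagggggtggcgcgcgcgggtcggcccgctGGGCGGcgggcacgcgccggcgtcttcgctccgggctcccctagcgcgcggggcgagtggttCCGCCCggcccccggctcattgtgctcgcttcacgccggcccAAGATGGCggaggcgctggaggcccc
PHF21A: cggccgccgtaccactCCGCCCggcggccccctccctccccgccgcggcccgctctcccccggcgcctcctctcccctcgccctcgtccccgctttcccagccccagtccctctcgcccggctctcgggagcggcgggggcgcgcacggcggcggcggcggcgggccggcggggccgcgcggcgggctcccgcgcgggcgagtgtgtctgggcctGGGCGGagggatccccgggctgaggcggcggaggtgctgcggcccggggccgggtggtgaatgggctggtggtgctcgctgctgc
PCGF1: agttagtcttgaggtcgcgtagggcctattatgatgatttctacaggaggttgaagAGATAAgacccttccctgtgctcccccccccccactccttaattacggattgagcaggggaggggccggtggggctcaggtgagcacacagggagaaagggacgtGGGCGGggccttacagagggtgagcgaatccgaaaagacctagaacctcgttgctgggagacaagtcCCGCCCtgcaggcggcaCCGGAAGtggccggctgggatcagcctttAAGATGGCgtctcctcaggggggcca
BCOR: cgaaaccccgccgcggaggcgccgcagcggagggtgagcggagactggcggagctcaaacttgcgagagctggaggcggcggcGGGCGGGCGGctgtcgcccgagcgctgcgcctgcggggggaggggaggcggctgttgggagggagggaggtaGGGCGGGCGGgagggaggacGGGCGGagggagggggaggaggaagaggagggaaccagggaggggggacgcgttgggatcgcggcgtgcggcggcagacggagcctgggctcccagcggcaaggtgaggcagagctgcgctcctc
GC boxes were the commonest match: DOT1L and BCOR held 5 each, SETD5, PHF21A and PCGF1 held 2 each, and KMT2E held 1. SETD5 also held 3 CCAAT boxes. DOT1L and PCGF1 shared the YY1-type motif, which began 24 bases downstream of the start site in both. PCGF1 was the only one of the 50 genes with the GATA motif in this window.

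Over the whole set the same window had a GC box in 41 of 50 genes (82.0%, against 60.9% of all genes) and the YY1-type motif in 8 (16.0%, against 4.02%). The CCAAT box was found in 21 (42.0% against 35.9%), the ETS motif in 6 (against 14.0%), the E-box CACGTG in 8 (16.0% against 8.74%) and the cyclic-AMP element TGACGTCA in 3 (against 2.68%). The GATA motif was found in 1 (2.00% against 7.23%), a TATA box (TATAAA) in 1, JARID2 (2.00% against 9.81%), and the NRF1 core GCGCATGC in 1, EZH1 (2.00% against 4.26%). These are matches of letters in a fixed window and not measured binding sites. The promoters were rich in G and C: the median G+C content of the 2001 bp promoter was 63.5%, against 55.9% over all genes, and 36 of the 50 exceeded 60%. The median ratio of observed to expected CpG was 0.792, against 0.635. None of the 50 had a divergent protein-coding start site within 1 kb, against 9.95% of all protein-coding genes.

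KMT2E encodes a trithorax-family SET-domain protein that binds methylated H3K4. Its promoter peak was 7437 bp wide in hairpin 1 and 8747 bp wide in hairpin 2, and the nearest peak of the control list lay 28811 bp from the start site. Peaks covered 7437, 8491 and 0 bp within 5 kb of the start site in hairpin 1, hairpin 2 and control. Both hairpin lists thus held one of the widest peaks of the set where the control list held nothing. The score of the peak, a number the authors' caller gave each peak, ranked at percentile 62.2 in hairpin 1 and 22.3 in hairpin 2, counted within each list. KMT2E has another start site upstream, at the 5′ end of the gene, and with that start site the mean of the hairpin lists was below the control list, by a mean difference of -1217 bp.

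SETD5 encodes a SET-domain protein of the same broad family. Its promoter peak spanned 6030 bp in hairpin 1 and 6629 bp in hairpin 2, with score percentiles of 70.6 and 72.2. The nearest control peak, 24600 bp away, lay inside the gene. Covered base pairs within 5 kb were 6030, 6629 and 0 in hairpin 1, hairpin 2 and control, so both hairpin lists were high and similar. When the start sites of all basic transcripts counted, SETD5 had a promoter peak in the control list too and left the group.

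DOT1L, the H3K79 methyltransferase, had a promoter peak of 5510 bp in hairpin 1 and 5015 bp in hairpin 2, ranked at percentiles 48.1 and 63.4. Covered base pairs were 5510, 5015 and 0 in hairpin 1, hairpin 2 and control. All 3 lists had a further peak upstream, which in control lay 11387 bp from the start site. The contrast between the lists was therefore at the start site and not at that upstream peak.

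PHF21A encodes a reader of unmethylated H3K4 in the LSD1 (KDM1A) demethylase complex and is counted here with the demethylases. Its peaks measured 4847 bp in hairpin 1 and 4880 bp in hairpin 2, at score percentiles 68.0 and 79.2, the best ranked of this group in the hairpin 2 list. Covered base pairs were 4847, 4880 and 0 in hairpin 1, hairpin 2 and control. The control list had its nearest peak 12887 bp away in the gene body. Beyond 5 kb, peaks covered 8652, 16134 and 16856 bp of the PHF21A gene body in hairpin 1, hairpin 2 and control, so the control list held as much inside the gene as the hairpin 2 list while lacking the promoter peak.

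PCGF1 encodes the RING-finger partner that defines a variant PRC1 complex, in which BCOR and KDM2B also sit. Its promoter peak was 7228 bp wide in hairpin 1 and 8265 bp in hairpin 2, at percentiles 48.3 and 31.7. The control list had a peak of 3792 bp that began 1967 bp downstream of the start site and so missed the promoter. Covered base pairs within 5 kb were 6375, 6493 and 3034 in hairpin 1, hairpin 2 and control. The absence at PCGF1 was thus of the part of the peak over the start site, and with a promoter of 2.5 kb on each side PCGF1 counted as present in all 3 lists.

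BCOR, the scaffold of that same variant complex, showed the opposite pattern. Its control peak was 7267 bp wide, at score percentile 34.0, and the nearest peaks lay 13202 bp from the start site in hairpin 1 and 18673 bp in hairpin 2. Covered base pairs were 0, 0 and 7267 in hairpin 1, hairpin 2 and control. Both hairpin lists were empty where the control list held 1 wide peak. BCOR also has another start site at its 5′ end, where the mean difference between the hairpins and control was 0 bp.

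BMI1 encodes a RING-finger subunit of canonical PRC1, and it separated the hairpins from each other. Covered base pairs were 6645, 0 and 6722 in hairpin 1, hairpin 2 and control. The peak was 7857 bp wide in hairpin 1, at percentile 2.00 of its list, and 7402 bp wide in control, at percentile 37.4. Its window also holds the start sites of COMMD3 and COMMD3-BMI1, so the peak cannot be assigned to BMI1 alone. SETD1B, an H3K4 methyltransferase, had no covered base within 5 kb in any list. Its nearest peaks lay 7153, 6810 and 7340 bp downstream in hairpin 1, hairpin 2 and control.

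**Figure D1:**
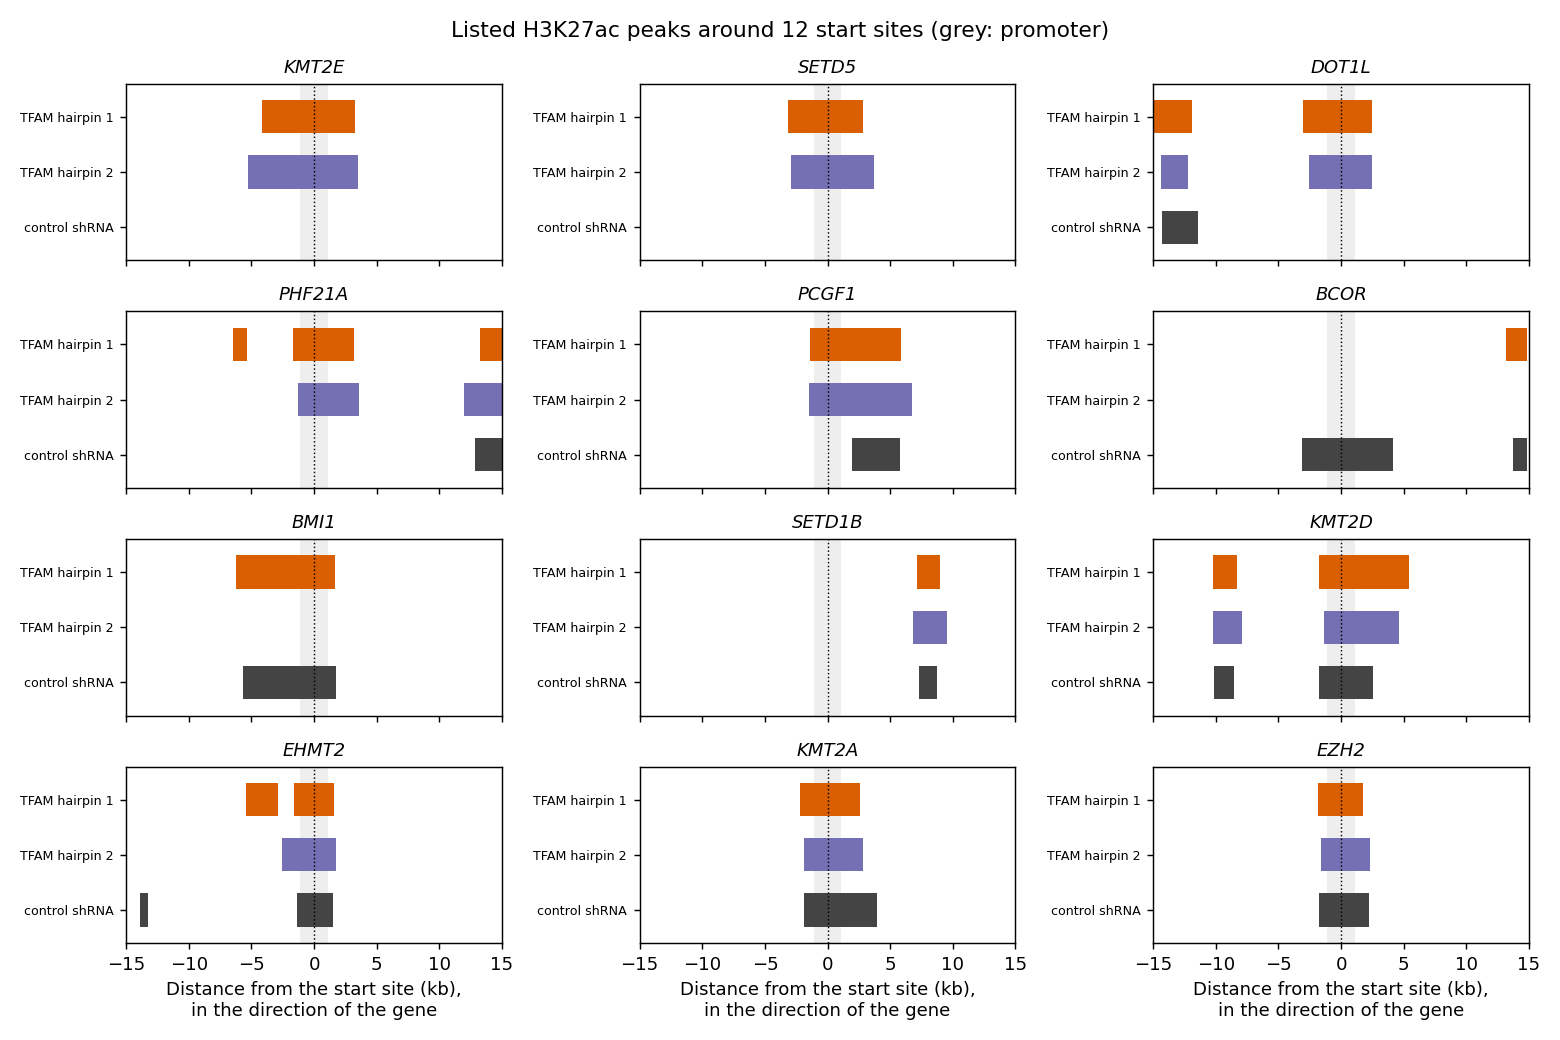
Listed H3K27ac peaks (bars) of TFAM hairpin 1, TFAM hairpin 2 and control shRNA around 12 start sites, by distance from the start site in kb in the direction of the gene, with the promoter shaded grey. KMT2E, SETD5, DOT1L, PHF21A and PCGF1 have a bar over the start site in the hairpin rows alone, BCOR in the control row alone and BMI1 in the hairpin 1 and control rows, while KMT2A and EZH2 have one in every row.

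The 7 genes with a promoter peak in some lists but not others had wide peaks, in a set chosen with earlier results of these data known. The widest promoter peak of each of these 7 genes ranged from 4880 to 8747 bp, with a median of 7267 bp. The median was 3747.5 bp at the 42 genes with a promoter peak in all 3 lists. Over all protein-coding genes the order was the reverse. There the median was 1623.5 bp at the 1660 genes with a promoter peak in 1 or 2 lists. It was 3050 bp at the 10143 genes with one in all 3 lists. Of the 16 members whose widest promoter peak exceeded 5 kb, 6 (37.5%) lacked it in at least 1 list, against 289 of 1650 protein-coding genes (17.5%). Of the 33 members with narrower peaks, 1 (3.03%) did, against 13.5% of 10153 genes. PHF21A was that 1 gene.

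Among all protein-coding genes, promoter peaks wider than 7 kb were often in 1 list and absent from another, also between the hairpins. Of genes with a promoter peak of 2 to 3 kb in hairpin 1, 1.68% had none in hairpin 2 (95% exact binomial interval 1.29% to 2.14%), whereas of those with one wider than 7 kb 26.8% had none (20.5% to 33.8%). For peaks of hairpin 2 missing from hairpin 1 the shares were 1.74% and 12.2%. For peaks of hairpin 1 missing from control the shares were 1.70% and 18.6%, and for peaks of hairpin 2 missing from control they were 1.60% and 16.9%. For peaks of control missing from hairpin 1 they were 1.27% and 17.1%, and from hairpin 2 they were 1.59% and 35 of 140 genes. The share was higher for the widest peaks than for those of 2 to 3 kb in all 6 directions, and genes with peaks up to 2 kb also had high shares, between 5.62% and 15.5%. The intervals cover counting error only.

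Score rank was highest at intermediate widths. The median score percentile of promoter peaks up to 2 kb was 62.2, 64.7 and 57.8 in hairpin 1, hairpin 2 and control. That of peaks of 3 to 4 kb was 85.7, 87.3 and 86.7 in hairpin 1, hairpin 2 and control, and that of peaks wider than 7 kb was 33.5, 37.5 and 30.2. Among the members, peaks wider than 6 kb had median percentiles of 49.0 (8 peaks), 63.2 (7) and 45.4 (6) in hairpin 1, hairpin 2 and control, while the narrower ones had 81.1, 84.1 and 81.9. The widest peak of any list measured 8841 bp. The sources used here do not say whether broader regions were left out when peaks were called, so a value of 0 bp, as at KMT2E, BCOR and BMI1, means that no peak was listed and not that the mark was absent. When only genes with promoter peaks of up to 5 kb in every list were kept, 34 members remained and PHF21A alone had a promoter peak in both hairpins and none in control, against 1.31% of all genes kept. When only the higher-scoring 50% of each list was kept, 3 members had that pattern (SETD5, PHF21A and KDM6B), against 2.81% of all genes, and BCOR had no promoter peak left in any list. Whether width or score rank has a part in the presence or absence of the peaks at single genes among KMT2E, SETD5, DOT1L, PHF21A, PCGF1, BCOR and BMI1 was not tested.

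**Figure D2:**
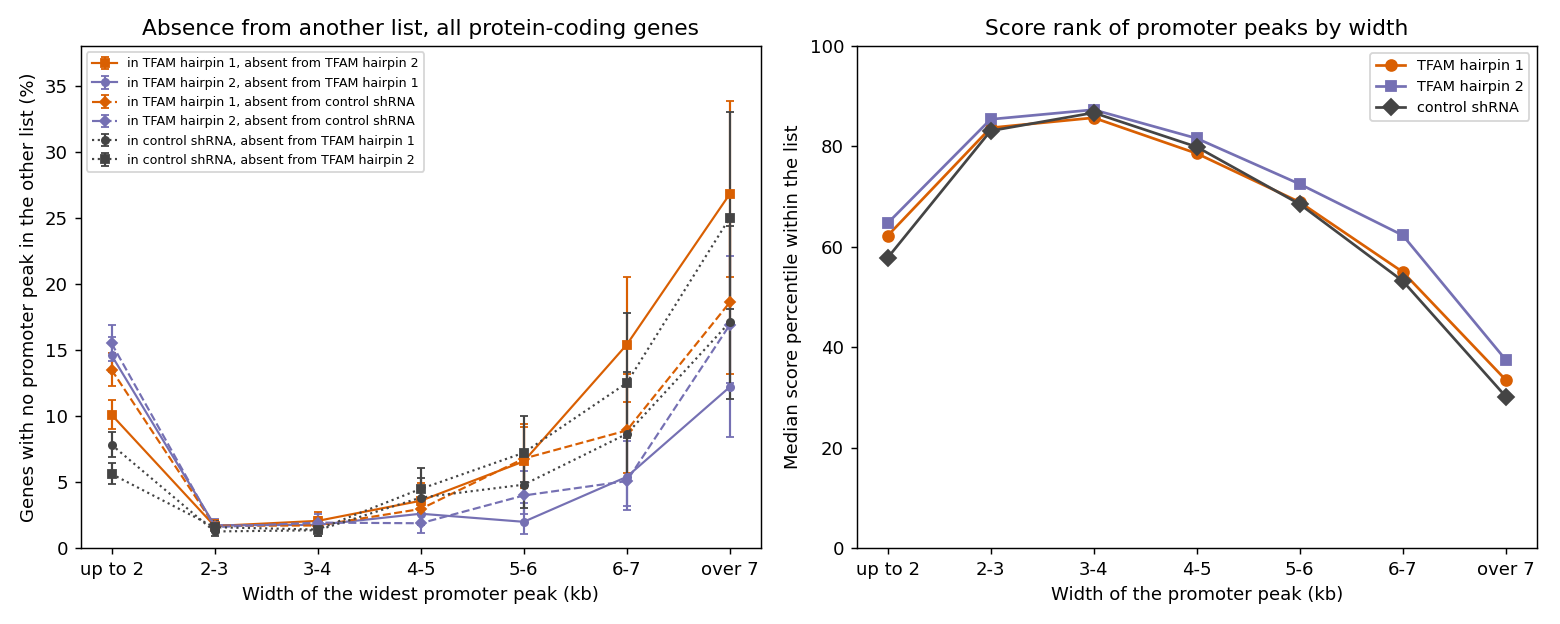
Left, the share of protein-coding genes with a promoter peak in the first-named list that had none in the other, by the width of their widest promoter peak in kb, with 95% exact binomial intervals; right, the median score percentile of promoter peaks by width in each list. The share missing lies between 1.27% and 1.74% at 2 to 3 kb and between 12.2% and 26.8% above 7 kb, and the score percentile is highest at 3 to 4 kb and lies between 30.2 and 37.5 above 7 kb.

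Peak coverage around the start sites was then compared as base pairs within 5 kb on each side. The median over the 50 genes was 3671.5 bp in hairpin 1, 3826 bp in hairpin 2 and 2988.5 bp in control, against 1493, 1548 and 1368 bp over all protein-coding genes. Among the 42 genes with a promoter peak in every list the medians were 3493.5, 3706.5 and 3210 bp, against 2707, 2875 and 2609 bp over the 10143 genes of that kind. The medians of the members were thus above those of all genes in every list.

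**Figure D3:**
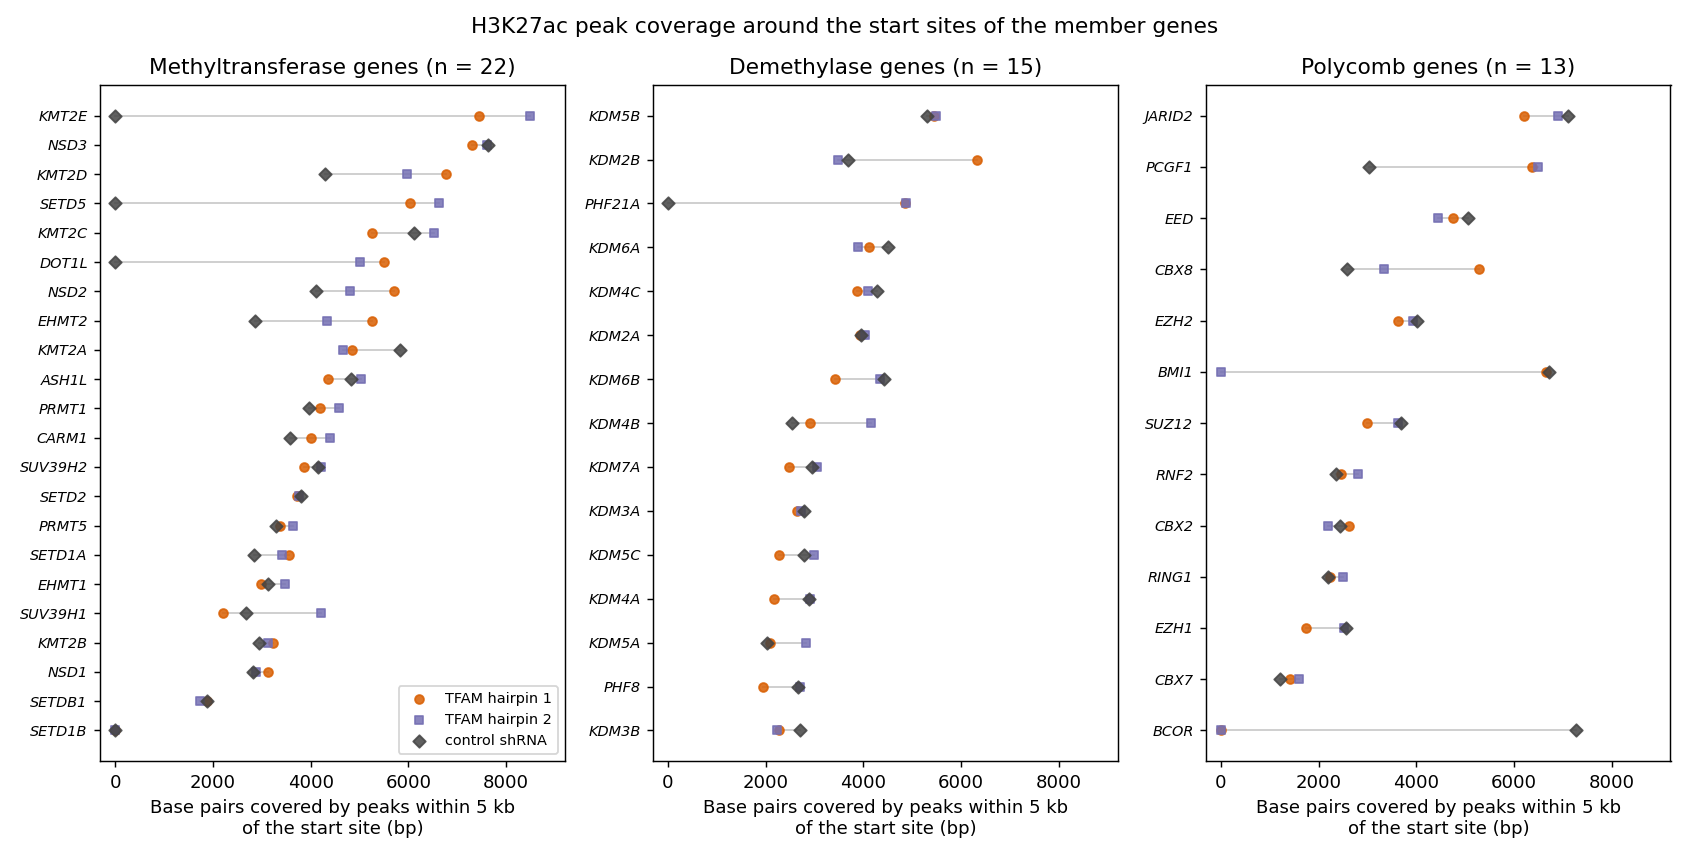
Base pairs covered by H3K27ac peaks within 5 kb of the start site (x axis, bp) for each of the 50 genes, in TFAM hairpin 1 (circles), TFAM hairpin 2 (squares) and control shRNA (diamonds), with 1 library each. Most genes have the 3 symbols close together, and KMT2E, SETD5, DOT1L, PHF21A, BCOR and BMI1 have 1 or more symbols at 0 and the others far to the right.

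Of the 50 members, 35 stayed within 1000 bp of the control value in both hairpins. A promoter peak in all 3 lists was present at 34 of these, and the other was SETD1B, with no covered base in any list. The matching share over all genes was not computed, so this count is not read as particular to the members. At least 1000 bp more was covered in hairpin 1 at 10 members (20.0%), against 7.68% of all protein-coding genes and 12.1% of those with a promoter peak in at least 1 list. In hairpin 2 the same held for 9 members (18.0%), against 9.51% and 15.1%. At least 1000 bp less was covered in hairpin 1 at 1 member, BCOR, against 4.85% and 7.68% of these genes. It was covered by that much less in hairpin 2 at 3 members, KMT2A, BMI1 and BCOR, against 3.25% and 4.98%. Both hairpins exceeded control by that much at 7 genes (14.0%, against 3.46% and 5.56%): KMT2E, SETD5, DOT1L, PHF21A, PCGF1, KMT2D and EHMT2. Both fell short of control by that much at BCOR alone (against 1.37% and 2.04%). KMT2D and EHMT2 are the only ones of these 7 with a promoter peak in the control list.

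Among the 42 genes with a promoter peak in every list, 5 members had at least 1000 bp more in hairpin 1 (against 9.12% of all genes of that kind) and 4 in hairpin 2 (against 13.2%), and 0 and 1 had that much less (against 6.03% and 2.67%). Of the 42, 2 (4.76%, KMT2D and EHMT2) had at least 1000 bp more in both hairpins, against 4.56%, and none had that much less in both, against 1.15%. Counting differences of any size, 16 of the 42 (38.1%) had more in both hairpins than in control, against 45.0%, and 14 (33.3%) had less in both, against 22.5%. Their median difference from control was -113 bp in hairpin 1 and 93.5 bp in hairpin 2, against 75 and 210 bp over all genes of that kind. For differences of any size the share with more in both hairpins thus lay below the background share and the share with less above it. The exact binomial intervals were 23.6% to 54.4% for the share with more and 19.6% to 49.5% for the share with less. Each interval held its background share, so these shares are not read as particular to the members. For differences of at least 1000 bp in both hairpins, the 2 and 0 genes were near the background shares and too few to give an order.

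The role classes were set side by side. Median coverage of the 22 methyltransferase genes was 4100.5, 4373 and 3210 bp in hairpin 1, hairpin 2 and control, and 12 of them had more in both hairpins while 4 had less. For the 15 demethylase genes the medians were 2908, 3474 and 2892 bp, with 4 having more and 5 less. For the 13 Polycomb genes they were 2985, 2810 and 3034 bp, with 5 having more and 7 less. Over all genes 26.3% had more in both and 13.9% less in both, and of the genes with a promoter peak in at least 1 list 42.1% had more and 22.0% less. With the genes that lacked a promoter peak in some list set aside, the median log2 ratio to control was 0.01 and 0.12 for the methyltransferases in hairpin 1 and hairpin 2, -0.14 and 0.02 for the demethylases and -0.03 and -0.03 for the Polycomb genes, against 0.04 and 0.11 over all genes. All of these medians but that of the methyltransferases in hairpin 2 lay below those of all genes, with no replicate to set the gaps against.

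**Figure D4:**
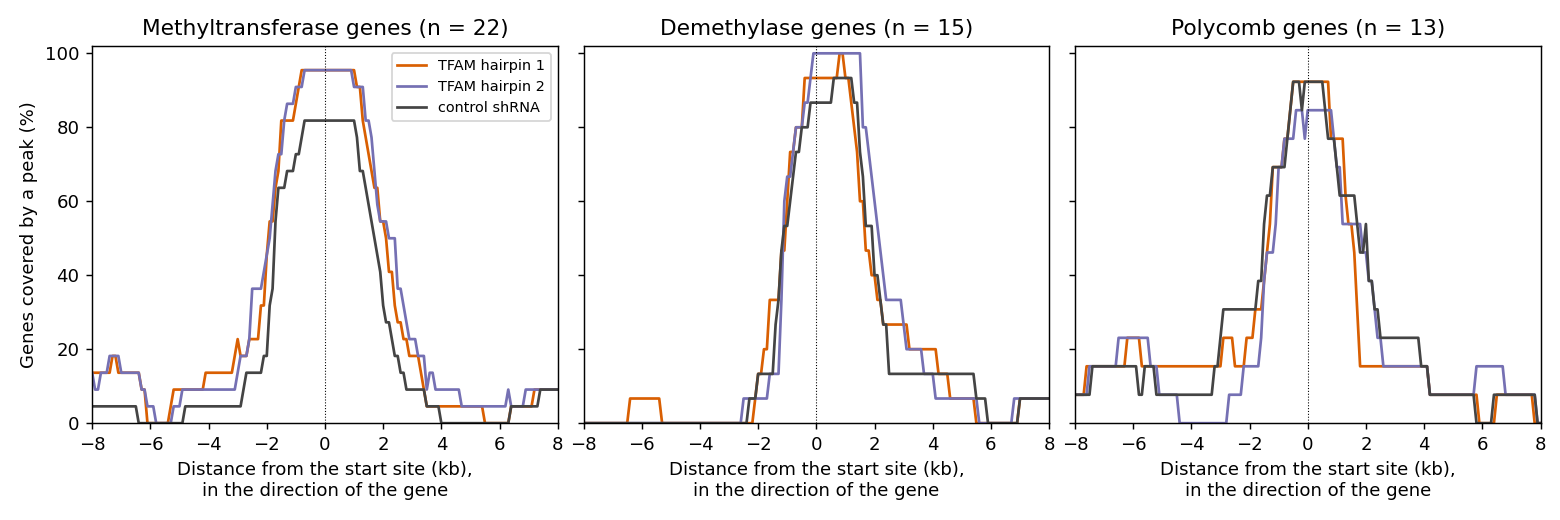
Share of the genes of each role class covered by a peak (y axis, %) at each distance from the start site (x axis, kb, in the direction of the gene) in TFAM hairpin 1, TFAM hairpin 2 and control shRNA. At the start site the methyltransferase genes are covered in 95.5% of cases in both hairpins and 81.8% in control, and the Polycomb genes in 92.3%, 84.6% and 92.3% in hairpin 1, hairpin 2 and control.

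KMT2D, an H3K4 methyltransferase that acts at enhancers, had 6761, 5982 and 4286 bp covered in hairpin 1, hairpin 2 and control. The extra coverage was downstream of the start site, where the values were 5001, 4646 and 2529 bp, while upstream they were 1760, 1336 and 1757 bp. The KMT2D peak that was widest, in hairpin 1, ranked at percentile 45.1, against 77.1 in hairpin 2 and 86.6 in control. The sign of the mean difference of the hairpins from control turned with the processing. It was 2085.5 bp, but -209 bp in a window of 2.5 kb on each side and -1295 bp with the higher-scoring 50% of each list. The narrower window ended before the downstream stretch where the lists differed. With the higher-scoring 50%, the hairpin 1 peak was dropped, while the hairpin 2 peak was kept and stayed wider than that of control. Neither setting thus gave less coverage in both hairpins.

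EHMT2 (G9a), an H3K9 methyltransferase, had 5251, 4340 and 2854 bp covered in hairpin 1, hairpin 2 and control. Here the extra coverage was upstream, with 3681, 2564 and 1353 bp, against 1570, 1776 and 1501 bp downstream. The start site of ZBTB12 also lies in this window. In hairpin 1 the upstream part belonged to a separate peak, whereas in hairpin 2 the promoter peak itself reached further. The mean difference of the hairpins from control was 1941.5 bp, but 891.5 bp with the higher-scoring 50% of each list and 859.5 bp in a window of 2.5 kb on each side, and under both EHMT2 no longer had 1000 bp more in both hairpins.

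The other H3K4 methyltransferase genes did not share a direction. KMT2A had 4839, 4670 and 5826 bp in hairpin 1, hairpin 2 and control, so both hairpins were lower. KMT2C had 5265, 6524 and 6119 bp, with control between the hairpins. SETD1A had 3568, 3411 and 2845 bp and KMT2B had 3222, 3129 and 2935 bp, both slightly higher in the hairpins. Of the H3K36 enzymes, NSD2 had 5714, 4804 and 4105 bp, also higher in both, and NSD3 had 7303, 7601 and 7640 bp, the widest coverage of any member in control. The NSD3 window also holds the start site of LETM2, so this coverage cannot be assigned to NSD3 alone. SETD2, which trimethylates H3K36, had 3715, 3768 and 3801 bp, 3 nearly equal values. SUV39H1, which trimethylates H3K9, had 2207, 4206 and 2683 bp, so the hairpins lay on opposite sides of control. The remaining 8 methyltransferase genes, among them the arginine methyltransferases PRMT1, PRMT5 and CARM1, had between 1745 and 5023 bp in the hairpins, against 1889 to 4822 bp in control, and none differed by 1000 bp in either hairpin.

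**Figure D5:**
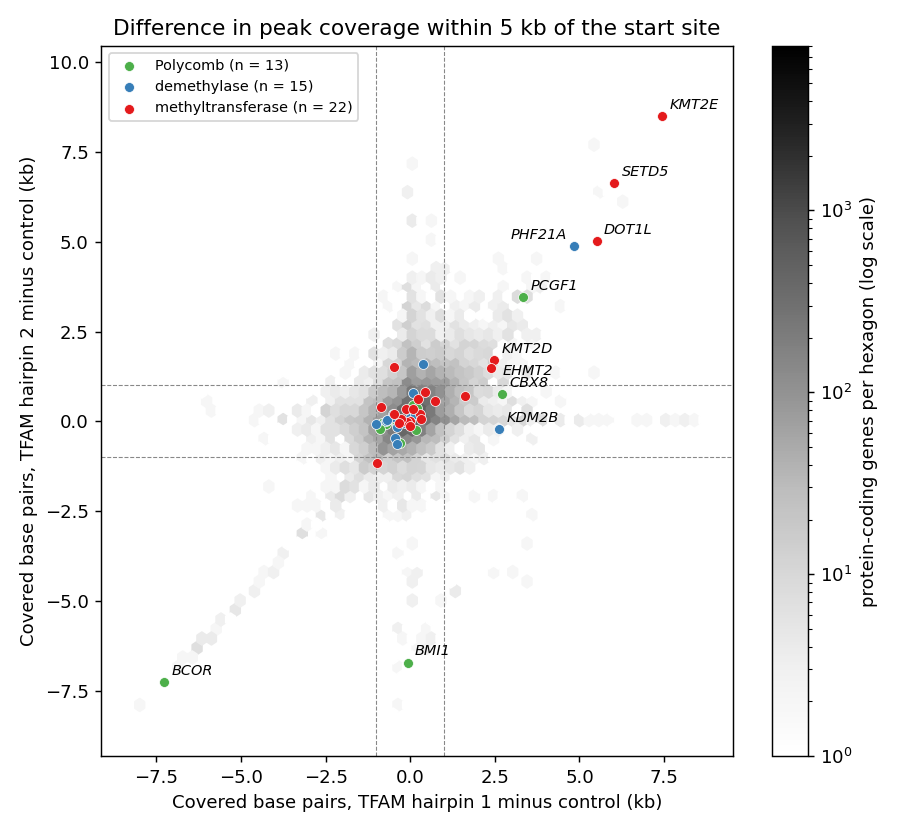
Difference from control shRNA in covered base pairs within 5 kb of the start site (kb), for TFAM hairpin 1 (x axis) and TFAM hairpin 2 (y axis), with members as coloured points by role class over all protein-coding genes as hexagons on a log scale; dashed lines mark 1000 bp. KMT2E, SETD5, DOT1L, PHF21A and PCGF1 lie far to the upper right and BCOR to the lower left. BMI1 lies near 0 on the hairpin 1 axis and far below 0 on the hairpin 2 axis, and most members lie near the centre.

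Among the demethylases, KDM5B, an H3K4 demethylase, had the most covered base pairs in control and varied little, with 5436, 5492 and 5290 bp in hairpin 1, hairpin 2 and control. The H3K27 demethylase KDM6A had 4122, 3884 and 4505 bp, lower in both hairpins. KDM6B, its relative, had 3419, 4333 and 4417 bp, nearly all of it downstream of the start site. KDM2B, an H3K36 demethylase that brings the PCGF1 complex to CpG islands, had 6320, 3474 and 3692 bp, high in hairpin 1 alone. KDM4B, an H3K9 and H3K36 demethylase, had 2908, 4150 and 2541 bp, highest in hairpin 2. The 9 demethylase genes not named above had between 1952 and 4103 bp in the hairpins, against 2027 to 4271 bp in control.

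The PRC2 genes EZH2, SUZ12, EED and EZH1 had a promoter peak in every list and differed by less than 1000 bp from control. EZH2, the H3K27 methyltransferase, had 3628, 3924 and 4005 bp in hairpin 1, hairpin 2 and control, and its peak ranked at or above percentile 99.7 in every list. SUZ12 had 2985, 3631 and 3694 bp and EED had 4754, 4451 and 5060 bp. EZH1, the other H3K27 methyltransferase, had 1738, 2522 and 2567 bp. Both hairpins lay below control in these 4 genes, against 22.5% of all genes with a promoter peak in every list, but the 4 were chosen after their values were seen. Some PRC2 genes of the wider pathway list went the other way and others did not. RBBP4 had 4445, 4057 and 3433 bp, and PHF1, PHF19 and EPOP were also above control in both hairpins. By contrast, RBBP7 had 2799, 3061 and 3341 bp, MTF2 had 2995, 2755 and 3441 bp and AEBP2 had 2296, 2300 and 2354 bp, each below control in both. JARID2, a PRC2 cofactor, had 6212, 6895 and 7102 bp, also lower in both hairpins.

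The PRC1 genes were more mixed. RING1 and RNF2, which encode the ubiquitin ligases, had 2226, 2503 and 2191 bp and 2455, 2810 and 2366 bp in hairpin 1, hairpin 2 and control, both slightly higher in the hairpins. CBX8 had 5288, 3339 and 2580 bp, the larger value of hairpin 1 lying upstream of the start site. CBX2 had 2614, 2201 and 2440 bp. CBX7 had 1425, 1596 and 1212 bp, the least of the members with a peak in every list, and its promoter was split between 2 peaks in hairpin 2 and in control.

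Away from the start sites, peaks lay in the gene bodies of 26, 27 and 22 of the 47 members whose body extends beyond 5 kb, in hairpin 1, hairpin 2 and control. They covered 87152, 92163 and 82726 bp. Over all 20149 protein-coding genes, not matched for length, 4783, 5494 and 4623 had such peaks in hairpin 1, hairpin 2 and control. Summed over genes, these covered 15601796, 18751943 and 14366485 bp. In these totals, for the members and over all genes alike, hairpin 2 had the most and control the least. The role classes did not all share that order. The Polycomb genes had 12, 9 and 8 such peaks covering 24911, 18027 and 18359 bp in hairpin 1, hairpin 2 and control. The methyltransferase genes had 19, 19 and 12 such peaks covering 29150, 29553 and 21857 bp, and the demethylase genes 19, 19 and 21 covering 33091, 44583 and 42510 bp. JARID2 and PHF21A had the most. JARID2 had 8, 6 and 4 peaks covering 19604, 12924 and 10018 bp, more than PHF21A in hairpin 1 and less in hairpin 2 and control. KDM4B had 5887, 9420 and 5385 bp and KDM6B 4412, 4849 and 5018 bp. JARID2 thus had more body coverage in both hairpins while its start site had less.

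A list of 78 other genes of the same pathways was used for comparison. Of these, 66 (84.6%) had a promoter peak in all 3 lists. That share was 50.3% over all protein-coding genes and 85.9% over those with a promoter peak in at least 1 list. None of the 78 had one in both hairpins alone, against 1.53% and 2.61%. The exact binomial interval for 0 of 78 genes reached 4.62%, above both shares, so the 0 is not read as a difference from all genes. KMT5A, the H4K20 monomethyltransferase, had 0, 7006 and 6889 bp in hairpin 1, hairpin 2 and control, and AFF1, a fusion partner of KMT2A in leukaemia, had 0, 2442 and 4132 bp. Both were among the genes of the list with the largest mean differences below control.

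The largest mean differences above control were at PCGF3, BCORL1 and PRMT2. PCGF3, another variant PRC1 RING-finger gene, had 5279, 5683 and 2078 bp in hairpin 1, hairpin 2 and control. BCORL1, the paralogue of BCOR, had 3417, 3621 and 1446 bp, higher in both hairpins. PRMT2, an arginine methyltransferase, had 2739, 5142 and 3013 bp, above control in hairpin 2 alone. PCGF5, by contrast, had 1339, 1378 and 2571 bp.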

How the data were processed

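The deposited data are 1 list of H3K27ac peaks per library, and the input library is not analysed here. Per the labels, libraries were made with the NEBNext ChIP-seq kit and sequenced on a NextSeq500, and only uniquely aligned reads were kept, on hg19. Per the submitters' processing notes, Bowtie 0.12.7 and Picard were used, without stated roles. Peak names in the deposited lists begin with MACS; for its version and threshold, the use of input and the read depth, values are not given in the sources used here. Each peak's score is the authors' value, from 50 to 3100, on a scale the lists do not name. It was used only as a percentile within its list. Peak start and end positions were used as deposited.

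Each list was intersected with start sites from GENCODE release 44 lifted to hg19 (canonical transcript for 19869 of 20149 protein-coding genes, the gene's 5′ end for 280), using Python 3.11.15, numpy 2.4.6, pandas 2.3.3 and SciPy 1.17.1, with figures from matplotlib 3.10.9. A promoter peak overlaps the start site ± 1 kb by at least 1 bp. Coverage is counted within 5 kb, and a difference of at least 1000 bp is called. The interval counting was tested on simulated peaks. Sequence features were read from GRCh37, and the NRF1 motif was shortened to its core after a longer form had matched no member. Described by value were genes with a promoter peak in some lists alone, genes called in both hairpins, the genes most covered in control in each class, those with no coverage, those with most gene-body coverage and the other pathway genes that differed most. Genes added for their role, such as the PRC2 subunits, were chosen after their values were seen. The 50 genes, the gene lists and the rules were chosen with earlier results of these data known. Alternatives changed the peaks used, the start site, the windows, the overlap, the merging of gaps, the threshold and the measure. Some genes and sequences are not reported here.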

Additional observations from a re-analysis of the deposited data

How the results depend on the processing

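Of the counts recomputed under the alternatives, 97 stayed within 1.5 times their value and 40 did not. The cause was not tested for any of them. With the higher-scoring 50% of each list, promoter peaks in both hairpins alone numbered 3 (SETD5, PHF21A and KDM6B) and in control alone 0 among the members, and 3 other pathway genes had one in both hairpins alone. The shares over all genes were 2.81% in both hairpins alone and 0.735% in control alone. Under that setting at least 1000 bp more was covered in both hairpins at 3 members and less at 0, more in hairpin 1 at 6, less in hairpin 1 at 2 and less in hairpin 2 at 1, and 3 Polycomb genes had more in both. Of all genes, 4.15% had at least 1000 bp more and 1.39% that much less in both hairpins. KMT2D then had a mean difference of -1295 bp. With lists of equal length 2 other pathway genes had a promoter peak in control alone, against 0.928% of all genes.

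With the gene's 5′ end as start site, 0 members had a promoter peak in control alone and 0 had at least 1000 bp less in both hairpins, 1 other pathway gene had a promoter peak in both hairpins alone, and KMT2E had a mean difference of -1217 bp. The shares over all genes were 0.864%, 1.29% and 1.55% for these 3 patterns, in that order. With at least 500 bp of the promoter covered, 1 other pathway gene had a promoter peak in both hairpins alone, against 1.51% of all genes. A window of 2.5 kb left 5 members with more in hairpin 1 and gave KMT2D -209 bp. A window of 10 kb gave 12 members with more in both hairpins, 18 with more in hairpin 2 and 2 with less in hairpin 1. Of all genes, 5.95% had more in both hairpins in that window, against 3.46% in the 5 kb window. Shares over all genes for a single hairpin, or for differences of any size, were not computed under the alternatives.

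A threshold of 500 bp gave 2 members with less in both hairpins (against 3.54% of all genes), 10 with less in hairpin 1, 15 with more in hairpin 2 and 5 with less in hairpin 2. One of 2000 bp gave 5 with more in hairpin 2. A ratio of 1.5 among genes covered in every list gave 2 with more in both hairpins (against 2.79% of all genes), 0 with less in both (against 0.476%), 5 with more and 0 with less in hairpin 1, and 4 with more and 0 with less in hairpin 2. With only genes whose promoter peaks were up to 5 kb wide in every list, an alternative chosen after seeing the data, 34 members entered. Then 1 (PHF21A) had a promoter peak in both hairpins alone (against 1.31% of all genes kept) and 0 in control alone (against 0.703%). At least 1000 bp more was covered in both hairpins at 2 (EHMT2 and PHF21A, against 2.31% of all genes under that setting) and less at 0 (against 0.951%). More was covered in hairpin 1 at 3 and less at 0, and more in hairpin 2 at 4 and less at 0. Under it 7 methyltransferase genes had more and 2 had less in both hairpins, and 3 Polycomb genes had less in both. Both classes held fewer genes under that setting than in the full set, so these counts do not compare directly with the main ones.

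No paired analysis was possible because each condition has 1 library and no replicate numbers. Peak lists give presence and width, not the amount of the mark, and their read depth is unknown, so a missing peak is one not listed and not a mark shown to be absent. A difference between the hairpin and control lists cannot be told apart from one between libraries.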
